A study of Homo sapiens with 6 samples.

Results

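Transcript levels of 8 kallikrein-related peptidases, KLK5, KLK6, KLK7, KLK8, KLK9, KLK10, KLK11 and KLK13, were followed through 3 sorted cell populations of 2 breast cancer lines. The members were taken by their Entrez Gene IDs (25818, 5653, 5650, 11202, 284366, 5655, 11012 and 26085 in that order), which are 8 of the 18795 genes kept from the deposited table. HCC70 and MDA-MB-468 are human lines of basal-like breast cancer, and no genetic or drug treatment is given for either. Growing cells were detached with trypsin-EDTA, fixed and made permeable in methanol, and separated by flow cytometry after antibody staining. The sorted fractions were cells positive for keratin 18 (K18+), for keratin 18 with keratin 14 (K18+K14+), and for keratin 18 with vimentin (K18+Vim+). All 3 populations therefore carry keratin 18, and the labels do not say whether K18+ cells were also sorted as negative for the other antigens. RNA was recovered from the fixed cells with a kit for fixed tissue, and 1 library was made per population and line, 6 in all. The lines are thus the only replicates (n = 2 per population), and the p-values below measure how far the lines disagree, not the spread between separate cultures.

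Kallikrein-related peptidases are secreted serine proteases encoded side by side in 1 cluster on human chromosome 19. They are made as inactive precursors that other proteases, including members of the family, cleave into active enzymes, and inhibitors such as the SPINK5 product hold them in check. In stratified epithelium they are known for cleaving the desmosomal proteins that hold cells together, and several of them can activate the receptor encoded by F2RL1. In breast tissue they are known as products of epithelial cells whose levels differ between normal and malignant tissue.

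Values are FPKM as deposited, fragments scaled to transcript length and library size. The number of reads per library is unknown, so no counting error is given. The table has a floor of 0.1 FPKM, and a value there is described as listed at the floor. Of the members, KLK5, KLK6, KLK7, KLK8, KLK9 and KLK10 averaged at least 1 FPKM and entered the test, and KLK11 and KLK13 did not. For log2 ratios and differences 1 was added to each FPKM, which makes those of low genes too small. Fold values are ratios of FPKM.

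The sort antigens followed the labels. KRT14 was 48.6 and 279 FPKM in K18+K14+ cells of HCC70 and MDA-MB-468, against 15.3 and 47.8 FPKM in their K18+ cells, and VIM reached 54.8 and 259 FPKM in the K18+Vim+ libraries against 11.1 to 13.4 FPKM in the others. KRT18 was 158 to 216 FPKM in HCC70 and 464 and 569 FPKM in MDA-MB-468 K18+ and K18+K14+ cells, but the MDA-MB-468 library labelled K18+Vim+ had 67.7 FPKM. Genes that separate the lines went against that label. SMAD4 was 0.566 and 0.310 FPKM in the other MDA-MB-468 libraries and 5.19 FPKM in this one, against 7.01 to 13.7 FPKM in HCC70. RB1 was 0.307 and 0.269 FPKM in the other MDA-MB-468 libraries and 6.68 FPKM in this one, against 1.43 to 2.24 FPKM in HCC70. EGFR was 153 and 70.7 FPKM in the other MDA-MB-468 libraries and 10.4 FPKM in this one, against 11.2 to 23.25 FPKM in HCC70. Across the genes tested, log2 levels of MDA-MB-468 K18+ and K18+K14+ correlated at 0.919, and the libraries within HCC70 at 0.967 to 0.978. This library correlated at 0.828 with MDA-MB-468 K18+, at 0.791 with MDA-MB-468 K18+K14+ and at 0.743 to 0.746 with the HCC70 libraries. It is called the MDA-MB-468 library labelled K18+Vim+, and the members' differences, calls and likenesses that use it are also given without it. For the other genes mostly the counts of calls are given both ways, and most of their single differences between the lines include it.

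Promoter sequences were examined because most of the members moved together across the libraries while KLK7 did not. RefSeq (GRCh38.p14) held promoters for 7 of the 8 members, with 12 start sites in all, and no entry for KLK8. The 250 bases before the start are printed for 3 members with like profiles and for KLK7. For KLK10 and KLK7, which have several starts, the window is the one farthest upstream. Capitals mark matches to GGGCGG, a GC box, on either strand, so that CCGCCC is the same string read on the other strand. All 4 windows lie on the minus strand and are written 5′ to 3′ in the direction of transcription.
KLK5 (chr19:50953039-50953288): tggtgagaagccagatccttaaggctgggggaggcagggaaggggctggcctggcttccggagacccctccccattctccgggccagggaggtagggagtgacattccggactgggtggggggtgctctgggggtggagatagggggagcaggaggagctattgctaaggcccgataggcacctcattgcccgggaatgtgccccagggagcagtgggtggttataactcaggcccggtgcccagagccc
KLK6 (chr19:50969592-50969841): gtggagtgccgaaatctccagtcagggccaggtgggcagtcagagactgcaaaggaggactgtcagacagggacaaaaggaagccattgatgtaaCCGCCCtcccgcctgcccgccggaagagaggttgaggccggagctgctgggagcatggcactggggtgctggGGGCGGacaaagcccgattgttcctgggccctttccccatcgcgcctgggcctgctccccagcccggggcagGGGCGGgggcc
KLK10 (chr19:51019862-51020111): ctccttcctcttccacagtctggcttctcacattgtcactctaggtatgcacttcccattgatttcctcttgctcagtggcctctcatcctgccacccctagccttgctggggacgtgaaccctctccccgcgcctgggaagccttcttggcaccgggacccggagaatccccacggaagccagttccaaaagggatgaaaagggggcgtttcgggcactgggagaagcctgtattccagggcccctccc
KLK7 (chr19:50984065-50984314): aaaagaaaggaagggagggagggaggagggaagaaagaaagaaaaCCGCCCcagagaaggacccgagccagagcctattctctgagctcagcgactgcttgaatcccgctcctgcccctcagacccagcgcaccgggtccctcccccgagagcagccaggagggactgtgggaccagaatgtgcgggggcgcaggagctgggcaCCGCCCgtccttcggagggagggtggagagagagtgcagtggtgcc

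Besides the GC box, both strands were searched for the TATA box TATAAA, for the box named after its letters CCAAT, for the AP-1 site spelled TGANTCA, and for the grainyhead site spelled AACCGGTT. GGGCGG was present in 8 of the 12 member promoters, from 5 of the 7 members matched, against 42.6% of 35116 promoters of the same length. The KLK6 window holds 3 matches, and the KLK7 window 2, while the printed KLK5 and KLK10 windows hold none. Whether the string bears on the profiles was not tested, and the windows leave out KLK8. CCAAT was present in 2 of the 12 member promoters, at 1 start each of KLK7 and KLK13, against 32.0% of all promoters. The TATA box, the AP-1 site and the grainyhead site were found in 0 of the 12, against 10.7%, 6.57% and 0.117% of all. Overlapping matches were counted separately. Windows of different starts overlap for KLK7, KLK10 and KLK13, so the same site can be counted at more than 1 start and the 12 are not separate promoters. No match says only that these letters are not in the window. GC content ran from 58.4% to 70.0% in the member promoters, against a median of 58.0% over all.

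KLK5, a trypsin-like enzyme known in skin for activating other kallikreins, was the most abundant member in each of the 6 libraries. Its level was 37.2 FPKM in K18+, 129 FPKM in K18+K14+ and 26.7 FPKM in K18+Vim+ cells of HCC70. In MDA-MB-468 it was 633 FPKM in K18+ and 950.4 FPKM in K18+K14+ cells, and the library labelled K18+Vim+ gave 42.9 FPKM. The K18+K14+ library was highest and the K18+Vim+ library lowest in both lines. Ranked among all 18795 genes, KLK5 stood at place 106 in MDA-MB-468 K18+ and at place 2839 in HCC70 K18+.

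KLK8, also called neuropsin, was second in each library. Its level in HCC70 was 15.9 FPKM in K18+, 61.4 FPKM in K18+K14+ and 5.02 FPKM in K18+Vim+ cells. MDA-MB-468 gave 148 FPKM in K18+ and 524 FPKM in K18+K14+ cells, while the library labelled K18+Vim+ gave 11.9 FPKM. The order of the populations was the same as for KLK5, and the steps from K18+ to K18+K14+ were nearly equal in the lines, at 3.86-fold in HCC70 and 3.54-fold in MDA-MB-468.

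KLK10, a family member first known for its loss in breast cancer cells, measured 2.99 FPKM in K18+, 10.1 FPKM in K18+K14+ and 1.26 FPKM in K18+Vim+ cells of HCC70. The MDA-MB-468 values were 64.5 FPKM in K18+ and 177 FPKM in K18+K14+ cells, and the library labelled K18+Vim+ had 4.85 FPKM. KLK6, a trypsin-like enzyme abundant in the nervous system, was 1.66 FPKM in K18+, 3.32 FPKM in K18+K14+ and 0.452 FPKM in K18+Vim+ cells of HCC70. In MDA-MB-468 it was 76.7 FPKM in K18+ and 148 FPKM in K18+K14+ cells, and the library labelled K18+Vim+ had 5.30 FPKM. Both genes kept the order K18+K14+, K18+, K18+Vim+ in each line, and every KLK6 value of MDA-MB-468 lay above every one of HCC70.

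KLK7, a chymotrypsin-like enzyme that cleaves desmosomal proteins in skin, had another profile. In HCC70 it was 2.47 FPKM in K18+, 6.08 FPKM in K18+K14+ and 1.935 FPKM in K18+Vim+ cells. In MDA-MB-468 it was 4.252 FPKM in K18+ and 4.203 FPKM in K18+K14+ cells, and the library labelled K18+Vim+ had 0.478 FPKM. K18+ and K18+K14+ cells of MDA-MB-468 were thus level, and the highest value of all 6 was in HCC70.

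KLK9 was listed at the floor in K18+ and K18+Vim+ cells of HCC70 and at 0.192 FPKM in its K18+K14+ cells. In MDA-MB-468 it measured 8.41 FPKM in K18+ and 21.8 FPKM in K18+K14+ cells, and the library labelled K18+Vim+ had 0.299 FPKM. Only these K18+ and K18+K14+ values of MDA-MB-468 were above 1 FPKM. KLK11, a trypsin-like enzyme, was 0.183 FPKM, 0.605 FPKM and the floor in K18+, K18+K14+ and K18+Vim+ cells of HCC70, and 1.01 and 1.65 FPKM in K18+ and K18+K14+ cells of MDA-MB-468, with 0.259 FPKM for the library labelled K18+Vim+. KLK13 was listed above the floor only in MDA-MB-468 K18+, at 0.219 FPKM.

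**Figure D1:**
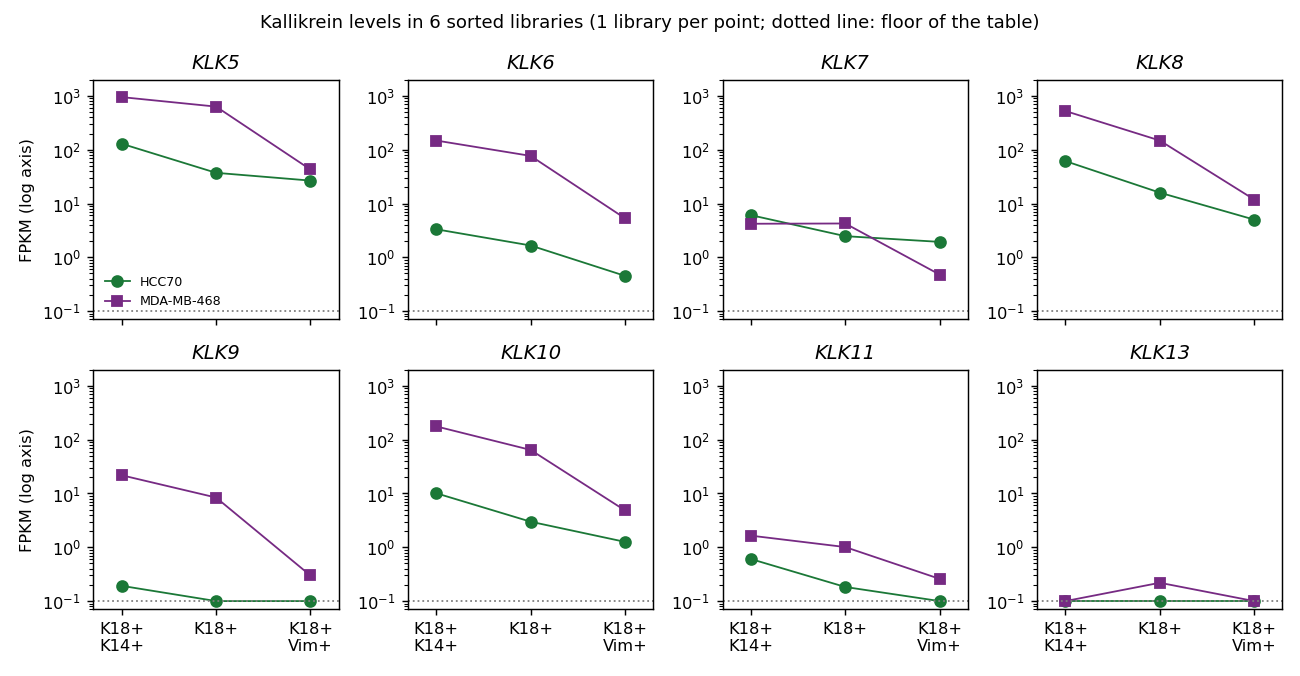
Level of each of the 8 kallikreins in FPKM (vertical log axis) by sorted population (horizontal axis), with 1 point per library, circles for HCC70 and squares for MDA-MB-468, and the table's floor of 0.1 FPKM dotted. KLK5, KLK6, KLK8, KLK10 and KLK11 step down from K18+K14+ to K18+ to K18+Vim+ in both lines, and KLK7 is level at 4.203 and 4.252 FPKM in the first pair of MDA-MB-468 populations.

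Summed over the 8 members, kallikrein transcripts came to 60.6, 211 and 35.6 FPKM in K18+, K18+K14+ and K18+Vim+ cells of HCC70. The sums in MDA-MB-468 were 936, 1827 and 66.1 FPKM, the last in the library labelled K18+Vim+. That is 0.0119%, 0.0427% and 0.00728% of all FPKM in HCC70 and 0.183%, 0.239% and 0.0117% in MDA-MB-468. KLK5 alone made up 52.0% to 74.8% of the sum and KLK8 14.1% to 29.1%. KLK6 contributed 8.03% to 8.20% in MDA-MB-468 and 1.27% to 2.73% in HCC70. KLK7 went the other way, with 2.88% to 5.43% of the sum in HCC70 and 0.230% to 0.724% in MDA-MB-468.

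**Figure D2:**
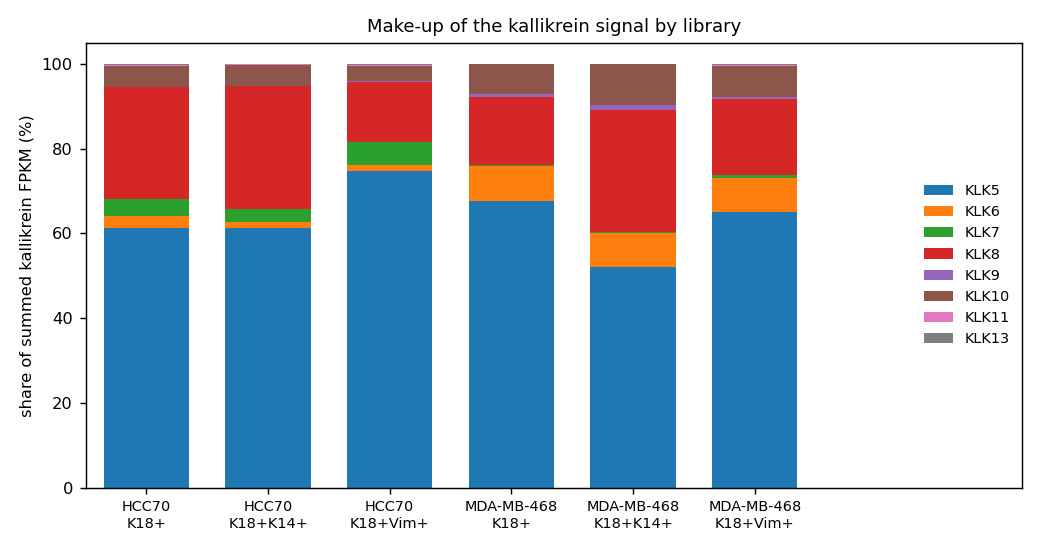
Share of the summed FPKM of the 8 kallikreins (vertical axis, percent) taken by each member in each of the 6 libraries (1 bar per library). KLK5 fills 52.0% to 74.8% of each bar, and the KLK6 share is wider in the 3 MDA-MB-468 bars than in the 3 HCC70 bars.

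K18+K14+ cells had more kallikrein transcript than K18+ cells for most members, by the largest folds for KLK8. For KLK8 the HCC70 and MDA-MB-468 folds were 3.86 and 3.54, and for KLK10 3.38 and 2.74. KLK5 was 3.47-fold higher in HCC70 and 1.502-fold higher in MDA-MB-468, and KLK6 2.002-fold and 1.93-fold higher. KLK7 differed in direction, at 2.46-fold higher in HCC70 and 1.01-fold lower in MDA-MB-468, a difference between lines that was not tested because 1 library per population and line leaves no spread. KLK9 was 2.60-fold higher in MDA-MB-468, and no fold is given in HCC70, where K18+ cells were at the floor.

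Of the 8 members, 6 had the higher value in K18+K14+ cells of both lines, against 15.6% of all genes, and KLK8 and KLK10 were at least 2-fold higher in both, against 0.814%. Of the 6 members tested, 5 were higher in both lines, beside 20.2% of genes tested. KLK9, among them, was at 0.192 FPKM in HCC70 K18+K14+ cells and at the floor in HCC70 K18+ cells. Over the 8 the median log2 ratios in HCC70 and MDA-MB-468 were 0.86 and 0.76, beside −0.01 and 0.00 over all genes. Over the genes tested the medians were −0.15 and −0.17. With the library medians made equal 6 of the 6 members tested were higher in both lines, KLK7 included. That scaling raises the ratio of every gene in this comparison. The share of all genes higher under it was not determined, so this count has no background beside it. Values of the lines overlapped between the populations for each member, so that 0 of 8 were higher in every pair of libraries, against 5.55% of all genes.

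The test passed 0 of the members. In the limma fit over 12454 genes, with Benjamini-Hochberg adjustment, 0 genes passed at 0.05 (0.0%), and 428 (3.44%) had an unadjusted p below 0.05, KLK8 among them. The KLK8 log2 difference was 1.85 ± 0.59 (SE, n = 2 against 2; limma adjusted p = 0.855). KLK10 differed by 1.46 ± 0.70 and KLK5 by 1.18 ± 0.78, each with a limma adjusted p of 0.855. KLK6 differed by 0.82 ± 0.75, KLK9 by 0.70 ± 0.91 and KLK7 by 0.51 ± 0.50, with limma adjusted p of 0.857, 0.894 and 0.858. Without the MDA-MB-468 library labelled K18+Vim+, the limma adjusted p for KLK8 was 0.389. The KLK8 difference stayed at 1.85 by design, as no K18+Vim+ library enters it. Across 12409 genes the log2 ratio fell with transcript length, with Spearman rho of −0.25 and −0.32 for HCC70 and MDA-MB-468, where genes are not independent replicates. The members' longest transcripts have a median of 1455 bases, against 3317 for genes tested. With length corrected for, an alternative chosen after the data were seen, KLK8 differed by 1.69, KLK10 by 1.65 and KLK9 by 0.30.

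K18+Vim+ libraries had less kallikrein transcript than K18+ libraries, with the smaller differences in HCC70. In HCC70 the K18+ value was 3.17-fold higher for KLK8, 3.67-fold for KLK6, 2.37-fold for KLK10, 1.39-fold for KLK5 and 1.28-fold for KLK7. Against the MDA-MB-468 library labelled K18+Vim+, the K18+ value was 12.5-fold higher for KLK8, 14.5-fold for KLK6, 13.3-fold for KLK10, 14.8-fold for KLK5, 8.90-fold for KLK7 and 28.1-fold for KLK9. In bulk samples, fewer cells of a type and less RNA per cell cannot be told apart.

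Of the 8 members, 6 were lower in K18+Vim+ than in K18+ libraries of both lines, against 25.5% of all genes, and 3 (KLK6, KLK8 and KLK10) were at least 2-fold lower in both, against 1.88%. In HCC70 alone, thus without the MDA-MB-468 library labelled K18+Vim+, 6 of 8 were lower, against 50.3% of all genes, and the same 3 were at least 2-fold lower, against 7.74%. KLK11, among the 6 of 8, was at the floor in HCC70 K18+Vim+. Of the 6 members tested, 5 were lower in both lines, beside 33.9% of genes tested. The same 5 were lower in HCC70 alone, beside 64.5% of genes tested. KLK7 and KLK8 were lower in every pair of libraries, against 12.1% of all genes. Over the 8 the median log2 ratios in HCC70 and MDA-MB-468 were −0.35 and −3.17, beside 0.00 and 0.00 over all genes. With 0 genes passing the limma test (0.0%) and 532 (4.27%) below an unadjusted p of 0.05, none of the members passed. The limma log2 differences were −2.51 ± 0.59 for KLK8, −2.25 ± 0.75 for KLK6, −2.16 ± 0.78 for KLK5, −2.15 ± 0.70 for KLK10, −1.43 ± 0.91 for KLK9 and −1.04 ± 0.50 for KLK7 (SE, n = 2 against 2), each with an adjusted p of 0.863.

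Without the MDA-MB-468 library labelled K18+Vim+, the differences were −1.51 for KLK8, −0.83 for KLK10, −0.81 for KLK6, −0.76 for KLK5, −0.50 for KLK7 and 0.29 for KLK9, with limma adjusted p of 0.894 to 0.944. Without HCC70 K18+Vim+ instead, so that the MDA-MB-468 one stood alone for its population, 1500 genes passed. KLK5, KLK6, KLK8, KLK9 and KLK10 then passed with limma adjusted p of 0.00241 to 0.00615. Such a fit assumes that a lone library varies like the other groups. Over all alternatives the limma adjusted p ran from 0.00252 to 1 for KLK8.

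K18+Vim+ and K18+K14+ libraries were the farthest apart. This comparison shares its libraries with both comparisons above, so its values stand beside theirs and are not separate evidence. The K18+K14+ value in HCC70 was 12.2-fold higher for KLK8, 8.01-fold for KLK10, 7.34-fold for KLK6, 4.84-fold for KLK5 and 3.14-fold for KLK7. In MDA-MB-468 it was 44.2-fold higher for KLK8, 36.4-fold for KLK10, 27.9-fold for KLK6, 22.2-fold for KLK5, 8.79-fold for KLK7 and 73.0-fold for KLK9.

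Of the 8 members, 7 were lower in K18+Vim+ than in K18+K14+ libraries of both lines, against 18.2% of all genes, and 6 were at least 2-fold lower in both, against 1.88%. KLK11, 1 of the 6, was at the floor in HCC70 K18+Vim+. So was KLK9, 1 of the 7, which had only 0.192 FPKM in HCC70 K18+K14+. In HCC70 alone 7 of 8 were lower, against 41.2%, and the same 6 at least 2-fold lower, against 6.5%. The 6 members tested were all lower in both lines, beside 23.7% of genes tested, and thus also in HCC70 alone, beside 51.7%. KLK5, KLK7, KLK8, KLK10 and KLK11 were lower in every pair of libraries, against 7.71% of all genes. None passed the limma test, as 0 genes did (0.0%), with 680 (5.46%) below an unadjusted p of 0.05. KLK8 had the largest member difference, at −4.36 ± 0.59 (SE, n = 2 against 2; limma adjusted p = 0.547), the smallest adjusted p in this comparison, shared with KRT14 of the sort and with other genes. The others ran from −1.54 ± 0.50 for KLK7 to −3.61 ± 0.70 for KLK10, each with a limma adjusted p of 0.682. Without the MDA-MB-468 library labelled K18+Vim+, KLK8 differed by −3.36 and KLK10 by −2.29, with limma adjusted p of 0.143 and 0.233. KLK9 then differed by −0.41, and KLK5, KLK6 and KLK7 by −1.94, −1.63 and −1.01. Without HCC70 K18+Vim+, 1988 genes passed, and all 6 members tested were among them, with limma adjusted p of 0.00121 to 0.022.

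**Figure D3:**
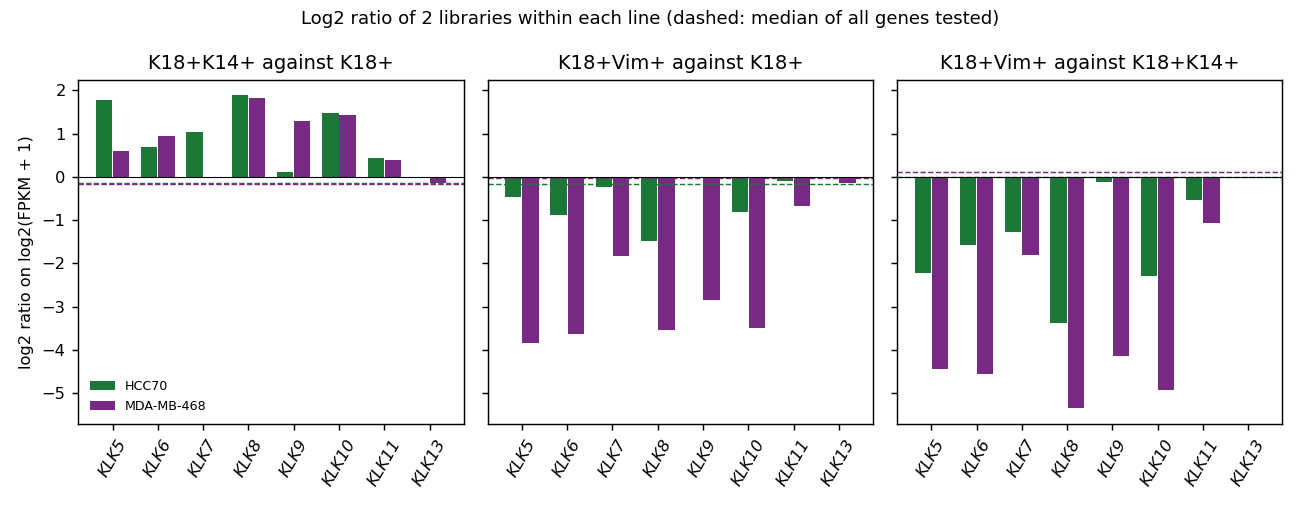
Log2 ratio of FPKM + 1 between 2 libraries of the same line (vertical axis) for each kallikrein, with HCC70 and MDA-MB-468 bars side by side and the median of all genes tested dashed. KLK8 and KLK10 are alike in the lines in the first panel, at 1.88 and 1.82 and at 1.48 and 1.44, while in the other panels the MDA-MB-468 bars, from the library labelled K18+Vim+, are the longer ones.

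The order K18+K14+ above K18+ above K18+Vim+ held in both lines for KLK5, KLK6, KLK8, KLK10 and KLK11, 5 of 8, against 3.02% of all genes. In HCC70 alone it held for 6, those 5 and KLK7, against 12.2%. In MDA-MB-468 it held for 6, those 5 and KLK9, against 15.6%.

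MDA-MB-468 cells carried more kallikrein transcript than HCC70 cells, with KLK7 apart. KLK6 was 46.3-fold higher in K18+ cells, 44.7-fold in K18+K14+ cells and 11.7-fold in the library labelled K18+Vim+. KLK10 was 21.6-fold, 17.5-fold and 3.85-fold higher in the same order, KLK5 17.0-fold, 7.36-fold and 1.61-fold, and KLK8 9.31-fold, 8.54-fold and 2.36-fold. KLK9 was 114-fold higher in K18+K14+ cells. KLK7 was 1.72-fold higher in K18+ cells but 1.45-fold lower in K18+K14+ cells and 4.05-fold lower in the library labelled K18+Vim+.

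In the limma fit 1522 genes (12.2%) differed between the lines, 565 (4.54%) of them higher in MDA-MB-468. Of the 6 members tested, 3 passed, all higher in MDA-MB-468. The log2 difference was 4.03 ± 0.61 for KLK6, 3.14 ± 0.57 for KLK10 and 2.44 ± 0.48 for KLK8 (SE, n = 3 against 3), with limma adjusted p of 0.0169, 0.0253 and 0.0304. KLK5 at 2.53 ± 0.64 and KLK9 at 2.53 ± 0.74 did not pass, with limma adjusted p of 0.0513 and 0.0708. KLK7 differed by −0.28 ± 0.41 (limma adjusted p = 0.661). All MDA-MB-468 libraries lay above all HCC70 libraries for KLK6 and KLK9, against 16.6% of all genes. An exact two-sided permutation test of 3 against 3 libraries cannot go below 0.1, and gave 0.1 for KLK6 and KLK9 and 0.2 to 1 for the other 6 members. The smallest it can give without the MDA-MB-468 library labelled K18+Vim+ is 0.2, which it gave for KLK5, KLK6, KLK8, KLK9, KLK10 and KLK11. The 3 libraries of a line are its 3 populations, not repeats of 1 population.

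These calls changed with single libraries. Without the MDA-MB-468 library labelled K18+Vim+, KLK5 and KLK9 also passed, at 3.46 and 3.68 with limma adjusted p of 0.00125 and 0.000356, and KLK6, KLK8 and KLK10 stayed past the threshold at 4.99, 3.11 and 4.02. KLK7 was then at 0.08. KLK9 entered the test only through its MDA-MB-468 values, being at or near the floor in HCC70. Leaving out HCC70 K18+Vim+ instead gave the same differences by design, because a library alone in its population adds nothing to the difference between lines. It is thus not a second check, and the same holds for the pairs of omissions that follow. Without the K18+ library of either line none of the members passed, KLK6 having limma adjusted p of 0.0669 without HCC70 K18+ and 0.0613 without MDA-MB-468 K18+. Without the K18+K14+ library of either line KLK8 and KLK10 did not pass, at 0.103 and 0.0806 without HCC70 K18+K14+ and at 0.0991 and 0.0769 without MDA-MB-468 K18+K14+. KLK8 and KLK10 also failed the limma test without the block for population, with adjusted p of 0.24 and 0.105.

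Among the members tested, log2 levels over the 6 libraries went together except for KLK7. Pearson correlations of the 10 pairs without KLK7 ran from 0.897 to 0.988, and those of the 5 pairs with KLK7 from 0.388 to 0.672. Without the MDA-MB-468 library labelled K18+Vim+ the ranges were 0.889 to 0.992 and 0.364 to 0.720. These are descriptions over libraries that share lines and populations, and no test is attached.

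The other kallikreins of the cluster stayed below 5 FPKM in each library, a range in which KLK6, KLK7, KLK9 and KLK10 also had values in HCC70. Of the 8 listed, which include plasma kallikrein KLKB1 from outside the cluster, KLK12 was at the floor throughout and KLK1, KLK3, KLK15 and KLKB1 stayed below 1 FPKM. KLK2, KLK4 and KLK14 were tested, with 0 passing in any of the 4 comparisons. KLK4, an enzyme of tooth enamel, was 1.23, 1.31 and 4.46 FPKM in K18+, K18+K14+ and K18+Vim+ cells of HCC70 and 2.11 and 1.87 FPKM in K18+ and K18+K14+ cells of MDA-MB-468, with 0.219 FPKM for the library labelled K18+Vim+. It lies next to KLK5 in the cluster and was highest in HCC70 K18+Vim+, where KLK5 was lowest. KLK14, which KLK5 can activate, lay between 0.843 and 2.15 FPKM. KLK2 was 4.66 FPKM in MDA-MB-468 K18+K14+ and below 1 FPKM in the others. Of 8 genes beside the cluster, 3 were tested and 0 passed. C19orf48P was 76.1 to 117 FPKM, and CTU1 4.75 to 8.04 FPKM. GPR32 and SIGLEC9, in contrast, were at the floor in each library.

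**Figure D4:**
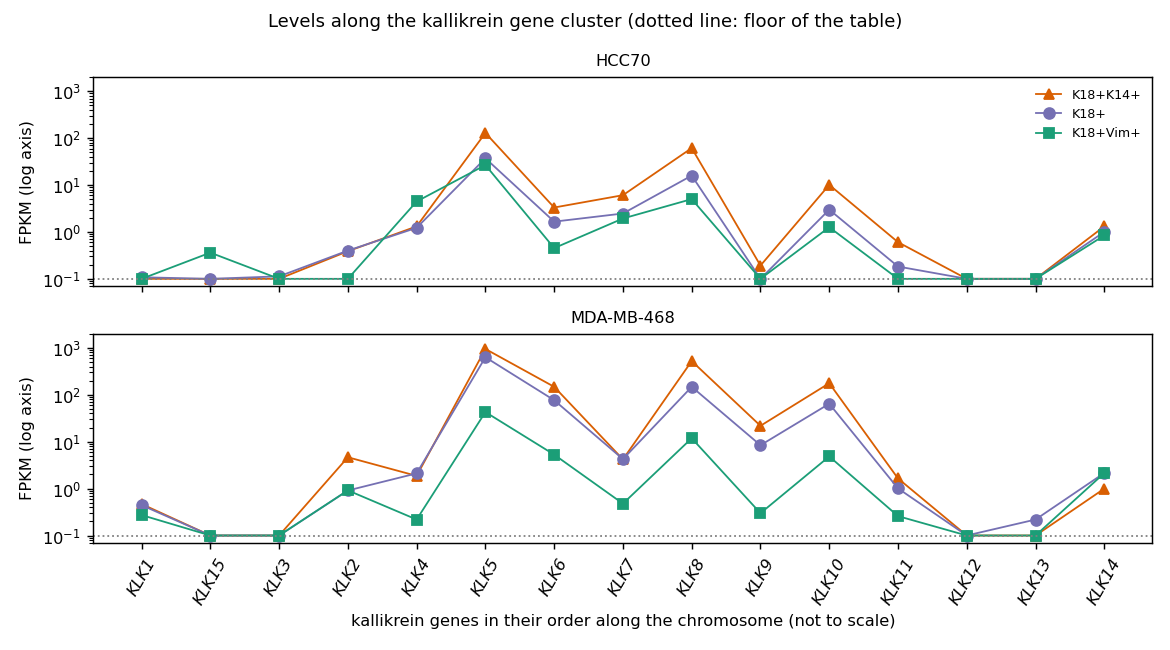
FPKM (vertical log axis) of 15 kallikrein genes in their order along the chromosome (horizontal axis, not to scale), with 1 line per sorted population, HCC70 above and MDA-MB-468 below, and the floor of 0.1 FPKM dotted. Levels peak at KLK5, KLK8 and KLK10, while KLK3, KLK12 and KLK15 lie at or near the floor in both lines.

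Genes with the profile most like the family's were sought among 216 genes that varied at least as much over the 6 libraries. The family profile was the mean of the centred log2 levels of the 6 members tested. The highest Pearson correlation was that of CRYAB, a small heat shock protein, at 0.999, with 8.66, 24.9 and 6.05 FPKM in K18+, K18+K14+ and K18+Vim+ cells of HCC70 and 149 and 353 FPKM in K18+ and K18+K14+ cells of MDA-MB-468, with 11.4 FPKM for the library labelled K18+Vim+. VGLL1, a cofactor of TEAD transcription factors, followed at 0.987, S100A4 at 0.982 and S100A2 at 0.967. The other 6 of the 10 were SAA1, DAPL1, HRCT1, S100A8, CSAG1 and ZNF625, at 0.954 to 0.964. Without the MDA-MB-468 library labelled K18+Vim+, 6 of these 10 were again among the 10 nearest. KLK8 alone was most like VGLL1 (0.949), S100A2 (0.943) and S100A4 (0.938), and KLK10 alone S100A4 (0.988), VGLL1 (0.987) and HRCT1 (0.965). LDHB, a lactate dehydrogenase subunit at 809.7 FPKM in the MDA-MB-468 library labelled K18+Vim+, entered, when that library was left out, as the most like KLK8 (0.986) and among those most like KLK10 (0.985), in place of S100A2 and HRCT1. These likenesses were over 6 libraries and carry no test.

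Genes listed as inhibitors, most of them from protease inhibitor families, had calls between the lines in both directions. Not every listed product is an inhibitor of serine proteases, and whether any acts on kallikreins in these cells was not tested. Of 19 listed, 13 were tested, and 5 passed as lower and 1 as higher in MDA-MB-468, beside 7.68% and 4.54% of all genes tested. Leaving out the MDA-MB-468 library labelled K18+Vim+, 6 passed as lower and 1 as higher, beside 15.4% and 11.5%. WFDC2, a whey acidic protein family member, was 342 to 373 FPKM in HCC70 and 3.22 to 5.41 FPKM in MDA-MB-468, a log2 difference of −6.15 (limma adjusted p = 0.00139). The serpins SERPINA3 and SERPINB5 differed by −4.33 and −1.97, with limma adjusted p of 0.0185 and 0.0206. SERPINB3 and SERPINA5 also passed as lower (limma adjusted p = 0.00473 and 0.0123), but both were at the floor in the 3 MDA-MB-468 libraries and entered the test only through HCC70, so the sizes of their differences depend on the floor and the added 1. A2M, a broad protease trap, was higher by 4.28 (limma adjusted p = 0.0406). It entered the test only through MDA-MB-468, having at most 1.08 FPKM in HCC70, so this size also depends on the added 1. SPINK5, the best known kallikrein inhibitor, stayed below 1 FPKM in each library, and SPINK6 was at the floor. Between populations 0 passed. In K18+K14+ against K18+ 6 of the 13 were higher and 1 lower in both lines, beside 20.2% and 43.7% of genes tested, with median log2 ratios of 0.12 and 0.02. SLPI, an inhibitor of secreted serine proteases, was 1298 and 2052 FPKM in K18+ and K18+K14+ cells of HCC70 and 1127 and 2951 FPKM in those of MDA-MB-468. In K18+Vim+ against K18+ 0 were higher and 7 lower in both lines, beside 16.5% and 33.9% of genes tested, with HCC70 and MDA-MB-468 medians of −0.07 and −2.37. In HCC70 alone 8 were lower, beside 64.5%. Against K18+K14+ 9 were lower in both, beside 23.7%, and in HCC70 alone also 9, beside 51.7%.

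Of 18 proteases that activate or work beside kallikreins, 12 were tested and 0 passed in any of the 4 comparisons. With the MDA-MB-468 library labelled K18+Vim+ left out, 1 passed as higher and 4 as lower in MDA-MB-468, beside 11.5% and 15.4% of genes tested. Their medians were 0.01 and −0.12 in K18+K14+ against K18+, with 3 higher and 4 lower in both lines, shares of 25.0% and 33.3% beside 20.2% and 43.7% of genes tested. ST14, the matriptase gene, was 46.2 and 55.1 FPKM in K18+ and K18+K14+ cells of HCC70 and 55.1 and 92.4 FPKM in those of MDA-MB-468. In K18+Vim+ against K18+ 5 were lower in both lines (41.7%, beside 33.9%), with HCC70 and MDA-MB-468 medians of −0.07 and −2.47, and in HCC70 alone 8 were lower (66.7%, beside 64.5%). Against K18+K14+ 2 were higher and 6 lower in both, and in HCC70 alone 7 were lower (58.3%, beside 51.7%).

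Of 27 receptors and substrates, 14 were tested, and 6 passed as lower and 0 as higher in MDA-MB-468, beside 7.68% and 4.54% of all genes tested. When the MDA-MB-468 library labelled K18+Vim+ was left out, 7 passed as lower and 0 as higher, beside 15.4% and 11.5%. Among those lower with all libraries were the laminin chains LAMB3 and LAMA3, at −3.14 and −3.31, E-cadherin (CDH1) at −2.25, and the desmosomal cadherins DSG3 and DSC3 at −2.00 and −1.27, with limma adjusted p of 0.0266 to 0.043 for these 5. DSG3 was at or near the floor in each MDA-MB-468 library and entered the test only through HCC70. The size of its difference thus depends on the floor and the added 1. Between populations 0 passed. In K18+K14+ against K18+ 1 was higher and 10 were lower in both lines (71.4%, beside 43.7% of genes tested), with medians of −0.43 and −0.27. F2RL1, the receptor that several kallikreins activate, was 6.59, 3.96 and 2.25 FPKM in K18+, K18+K14+ and K18+Vim+ cells of HCC70 and 9.47 and 6.44 FPKM in K18+ and K18+K14+ cells of MDA-MB-468, with 4.66 FPKM for the library labelled K18+Vim+. In K18+Vim+ against K18+ 1 was higher and 6 lower in both lines (42.9% lower, beside 33.9%), and against K18+K14+ 1 was higher and 4 lower (28.6% lower, beside 23.7%). In HCC70 alone 9 and 8 were lower (64.3% and 57.1%, beside 64.5% and 51.7%). DSG1 was at the floor in each library.

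Basal markers moved in the direction of the kallikreins between populations and went both ways between the lines. The part of the marker lists in the results was not tested. The basal list holds keratins and adhesion genes, KRT14 of the sort among them. Of its 9 genes tested, 7 were higher and 1 lower in K18+K14+ than in K18+ cells of both lines. These are 77.8% and 11.1%, beside 20.2% and 43.7% of genes tested, with HCC70 and MDA-MB-468 medians of 1.07 and 0.93. The summed level of the list in K18+ and K18+K14+ cells was 591 and 1093 FPKM in HCC70 and 712 and 1671 FPKM in MDA-MB-468. In K18+Vim+ against K18+ libraries 7 of 9 were lower in both lines (77.8%, beside 33.9%), and in HCC70 alone also 7 (beside 64.5%). The sum was 422 FPKM in HCC70 K18+Vim+, with 66.7 FPKM for the MDA-MB-468 library labelled K18+Vim+. Between the lines 3 of 9 passed as lower in MDA-MB-468, CDH3 by −3.71, KRT16 by −2.41 and KRT6B by −1.92 (limma adjusted p of 0.0116 to 0.0417). None passed as higher, beside 7.68% lower and 4.54% higher of all genes tested. Without the MDA-MB-468 library labelled K18+Vim+ 4 passed as lower and 3 as higher, beside 15.4% and 11.5%. The 3 higher were KRT17 by 2.68, KRT14 by 2.04 and ITGB4 by 1.41. The 4 lower were CDH3 by −3.06, KRT16 by −1.59, KRT6B by −1.48 and KRT6A by −1.29. Of the 9 luminal markers, 4 were higher and 3 lower in K18+K14+ than in K18+ cells of both lines (44.4% and 33.3%, beside 20.2% and 43.7%). They summed to 3219 to 4275 FPKM in HCC70 and to 4003 and 5914 FPKM in the other MDA-MB-468 libraries, but to 305 FPKM with the K18+Vim+ label. Luminal ESR1 and basal KRT6A were each at the floor in this last library. Mesenchymal markers summed to 343 FPKM in it, against 27.0 and 44.5 FPKM in the line's other libraries and 38.9 to 153 FPKM in HCC70. Of the 343 FPKM, VIM of the sort made up 259 FPKM, and of the 153 FPKM in HCC70 K18+Vim+ it made up 54.8 FPKM. In K18+Vim+ against K18+ libraries 3 of 8 mesenchymal genes tested were higher in both lines and 0 were lower, beside 16.5% and 33.9% of genes tested. VIM, on which these cells were sorted, is 1 of the 3, so its rise was set by the sort.

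Of 12 markers of cornified keratinocytes, where kallikreins are best known, 6 were tested. KRT1, TGM3 and LORICRIN were at the floor in each library, while CNFN was 17.9 to 90.2 FPKM, KRT10 10.1 to 23.4 FPKM and IVL 0.206 to 3.81 FPKM. CNFN was higher and SPRR1B lower in K18+K14+ than in K18+ cells of both lines. Each is 1 of the 6 tested (16.7%), beside 20.2% higher and 43.7% lower of genes tested. SPRR1B went from 0.268 to 0.167 FPKM in HCC70 and from 4.11 to 2.75 FPKM in MDA-MB-468. The sum of the list was 96.5 to 173 FPKM in HCC70 and 41.4 to 123 FPKM in MDA-MB-468. The 1 call was CSTA, a protease inhibitor of keratinocytes, lower in MDA-MB-468 (limma adjusted p = 0.00436), where it was at the floor in K18+ and K18+K14+ cells. It entered the test only through HCC70, and 7.68% of all genes tested passed as lower. Without the library labelled K18+Vim+ 2 passed as higher and 1, CSTA, as lower, beside 11.5% and 15.4% of genes tested. The leukocyte markers PTPRC, CD3E and LYZ stayed below 1.5 FPKM in each library, while CD14 was 2.44 to 138 FPKM and lower in MDA-MB-468 by −2.33 (limma adjusted p = 0.0421), and by −1.53 without the library labelled K18+Vim+ (limma adjusted p = 0.0156). Erythroid HBA1 and HBB stayed below 1 FPKM.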

How the data were processed

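RNA was sequenced from 6 sorted libraries, 1 for each of 3 populations in each of 2 lines. The authors deposited FPKM per Entrez Gene ID. The submitters' processing notes name TopHat2 and GRCh37. No counting tool, annotation or strand setting is given in the sources used here. The HCC70 K18+ and K18+Vim+ libraries have the same index in their labels, and their lanes are unknown. Per the labels, RNA came from methanol-fixed cells. Fixation can fragment RNA, with unequal effect on long and short transcripts.

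Of 18807 rows, 7 held a blank and were dropped, and of 2 rows sharing an ID (5 IDs) the higher mean was used, leaving 18795 genes, of which 18732 matched a symbol. Depth is unknown, so no counting interval was given. Log2(FPKM + 1) of the deposited values was fitted for the 12454 genes averaging 1 FPKM or more, with terms for population and cell line (R 4.3.3, limma 3.58.1, trended eBayes), which leaves 2 residual degrees of freedom. The cell line pairs the populations, as every population came from both. Benjamini-Hochberg adjustment was over all genes tested, at 0.05. The fit was tested on simulated data. Other steps used scipy 1.17.1, numpy 2.4.6, pandas 2.3.3 and matplotlib 3.10.9 under Python 3.11.15.

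The members, lists and tests were chosen with earlier results of these data known. The genes named were all members, sort antigens, line identity genes, the genes most like the family profile by correlation, and, from each pathway list, up to 4 genes with the largest smaller ratio of the lines or, for the lines, those passed. KLK4, KLK14, SPINK5, SPINK6, ST14, DSG1, LDHB, KRT10, KRT17, ITGB4, CNFN, SPRR1B, IVL and genes at the floor were named beyond this rule after their values were seen. Transcript lengths are those of the longest protein-coding transcript in GENCODE v29. No coordinates are given for the data, whose build differs from the reference. Alternatives were other blocks, subsets, pseudocounts, filters and scalings, and leaving out each library. Some genes of the lists are not reported here.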

Additional observations from a re-analysis of the deposited data

Results flagged for a closer look

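KLK7 moved in opposite directions in the lines between K18+K14+ and K18+ cells. Its log2 ratio was 1.03 in HCC70, from 2.47 to 6.08 FPKM, and −0.01 in MDA-MB-468, from 4.252 to 4.203 FPKM. The second value is close to 0, and the difference between the lines was not tested, since each ratio comes from 1 pair of libraries. With the library medians made equal, which raises the ratio of every gene in this comparison, KLK7 was higher in K18+K14+ cells of both lines.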

How the results depend on the processing

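For the populations, 0 genes passed in each of the 3 comparisons under each alternative that kept all libraries of the populations compared, namely no block for cell line, the 4 libraries alone, pseudocounts of 0.1 and 5, no filter, a mean of at least 5 FPKM, quantile normalization, equal medians, no trend and the length correction chosen after the data were seen. Leaving out 1 library gave 0 to 1 genes for K18+K14+ against K18+, 0 to 1500 for K18+Vim+ against K18+ and 0 to 1988 for K18+Vim+ against K18+K14+. For the lines, the block is the population. Without it 1875 genes passed, against 1522 with it, but KLK8 and KLK10 no longer did. With no filter 0 genes passed by limma (3993 had an unadjusted p below 0.05), KLK6, KLK8 and KLK10 having adjusted p of 0.164, 0.181 and 0.184, where 18795 genes were tested. Leaving out 1 library gave 206 to 3360. KLK5 passed at a pseudocount of 0.1 (limma adjusted p = 0.0474), a mean of at least 5 FPKM (0.0481) and equal medians (0.0478), in a range of 0.00125 to 0.251 over its alternatives. Leaving out 1 library turned the sign of KLK7 and KLK9 in K18+K14+ against K18+ (−0.15 to 1.16 and −0.60 to 1.99), of KLK9 in K18+Vim+ against K18+ (−3.15 to 0.29) and of KLK7 between the lines (−0.72 to 0.0768). The cause of these changes was not tested.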
